A study of Mus musculus with 18 samples.

Results

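Il10 and 4 transcription factors known to drive it, Maf, Prdm1, Nfil3 and Ahr, were followed through 18 RNA-seq libraries of mouse CD4+ T cells. The genes were taken by name from a table of 37991 genes, and all 5 passed the filter that kept 17240 genes for testing. Every library came from Tg4-H2u mice, a strain with a transgenic TCR that recognizes a peptide of myelin basic protein. Mice were either naive (N, given PBS throughout) or tolerized (T) by an escalating subcutaneous course of 7 doses of the 4Y peptide, an altered form of the myelin peptide. N0 and T0 cells were harvested 2 h after a last injection of PBS, NAg and TAg cells 2 h after a last injection of 80 µg of 4Y peptide (Ag), and NPI and TPI cells were stimulated in culture for 2 h with 20 ng/ml of the phorbol ester PMA and 2 µM of the calcium ionophore A23187 (PI). Each of the 6 groups had 3 biological replicates, and male and female mice aged 6 to 12 weeks were used. The cells were enriched for CD4 from whole spleen and were not sorted further, so each library also holds the other CD4+ cells of the spleen and what else the enrichment left.

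IL-10 is a cytokine that dampens immune responses, acting through a receptor that signals by STAT3. Among CD4+ T cells it is made by type 1 regulatory (Tr1) cells, which arise on repeated exposure to Ag and need no FOXP3, and also by FOXP3+ regulatory T cells and by effector cells. MAF, a basic leucine zipper protein, binds and activates the Il10 promoter. BLIMP-1, the zinc finger protein encoded by Prdm1, is needed for Il10 expression in several effector and regulatory T cell types. NFIL3 is a basic leucine zipper protein, known from the Il3 promoter and the circadian clock, that also favors Il10 in T helper cells. AHR is a ligand-activated receptor that cooperates with MAF at Il10 in Tr1 cells.

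All 5 genes are protein coding, and positions are those of NCBIM37 (mm9), the build of the counts. Il10 lies on the plus strand at chr1:132916422-132921551, with 5 exons and 1310 bases of exon. The other genes are on the minus strand. Maf is at chr8:118206842-118231694 with 8241 bases of exon, Prdm1 at chr10:44156983-44248307 with 5492, Nfil3 at chr13:53062578-53076442 with 2026 and Ahr at chr12:36182646-36219710 with 6173. An exon of Gm15655 overlaps Maf on the opposite strand by 440 bases and Gm17436 overlaps Ahr by 60 bases. These partners never exceeded 18 and 7 reads in a library, and whether the counting used the strand is not stated in the sources used here.

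RefSeq promoter sequences (build GRCm38.p6) matched 2 of the 5 genes, Prdm1 and Nfil3. They are shown because these were the members matched, and not for their pattern over the 6 groups. The lines give, 5′ to 3′ on the minus strand, the 250 bases before the transcription start. They cover chr10:44458749-44458998 for Prdm1 and chr13:52981040-52981289 for Nfil3. Capitals mark matches, on either strand, to the motifs listed after the sequences.
Prdm1: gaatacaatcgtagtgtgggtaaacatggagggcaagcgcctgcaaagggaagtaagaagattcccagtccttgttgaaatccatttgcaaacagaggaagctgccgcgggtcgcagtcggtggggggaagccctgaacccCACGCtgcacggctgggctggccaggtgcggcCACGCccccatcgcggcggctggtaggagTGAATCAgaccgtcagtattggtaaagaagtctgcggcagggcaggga
Nfil3: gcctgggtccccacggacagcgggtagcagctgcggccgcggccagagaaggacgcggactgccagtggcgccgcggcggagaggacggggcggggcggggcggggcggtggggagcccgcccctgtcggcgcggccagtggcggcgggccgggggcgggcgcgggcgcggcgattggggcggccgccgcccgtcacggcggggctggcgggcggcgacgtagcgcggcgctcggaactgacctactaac
The motifs searched were the MAF core TGCTGA, AP-1 as TGANTCA, NFIL3 as TTANNTAA, the AHR core GCGTG, BLIMP-1 as GAAAGT, the NFAT core GGAAA and the CRE as TGACGTCA, and no 2 of the matches overlapped. The Prdm1 window holds an AP-1 match from 48 to 42 bases before the start and 2 AHR core matches, written CACGC on this strand, that begin 109 and 77 bases before it. Of 32851 promoter windows of the same length in the table, 6.75% hold the AP-1 motif and 28.2% the AHR core. The Nfil3 window, with 81.6% G and C against 59.2% for Prdm1, holds none of the 7 motifs. A match is a match of letters and not a binding site, and the window shows nothing of elements further away.

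Total counts ranged from 10758571 to 24119489 per library and were highest after PI. A normalized count is a read count brought to a depth common to all libraries by TMM, the scaling method of edgeR. It compares a gene between libraries but not genes with each other. The CD4 T cell markers Cd3e, Cd3g and Cd4 were abundant in every library, with a summed level of 751 to 990 CPM (read counts scaled to library size) in N0 and T0. Their sum was lowest in NAg, at 327 to 359 CPM, against 551 to 630 in TAg. All 3 were called higher in TAg than NAg, by 0.57 to 1.01 on the log2 scale. Reads from Y-linked genes and Xist put all N0 and NAg libraries as female, all NPI and TPI libraries as male, T0 as 2 male and 1 female, and TAg as 1 male and 2 female. In bulk RNA, a change in the number of expressing cells and a change in RNA per cell cannot be told apart.

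Markers of other cells moved with the tolerized state. The 8 neutrophil markers, S100a8 and S100a9 among them, summed to 5.23 to 13 CPM in N0 and 123 to 217 CPM in T0, to 9.55 to 26.6 in NAg and 158 to 291 in TAg, and to 4.60 to 12.6 in NPI and 28.9 to 49.0 in TPI. All 8 were called higher in T0:N0 and TAg:NAg and 6 of 8 in TPI:NPI. The regulatory T cell markers Foxp3, Ikzf2, Il2ra and Nrp1 summed to 98.0 to 215 CPM in N0 against 489 to 629 in T0, to 1826 to 2151 in NAg against 2299 to 2408 in TAg, and to 476 to 570 in NPI against 1420 to 1707 in TPI. All 4 were called higher in T0:N0 and in TPI:NPI, and Ikzf2 and Nrp1 in TAg:NAg. Foxp3, which encodes the defining factor of regulatory T cells, had mean normalized counts of 263 in N0 and 719 in T0. Il2ra, also an activation gene, rose from 373 in N0 to 24759 in NAg and dominated the sum after Ag.

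Markers of other cells that can make IL-10, and of erythroid cells, were also followed. No macrophage marker of 8 was called higher in any of the 3 tolerized against naive comparisons, and 6 were lower in TAg:NAg. Their sum was 135 CPM in NAg replicate 1 against 41.5 and 27.5 in the other NAg libraries and 23.6 to 28.7 in TAg, and without that library 4 were lower. NAg replicate 1 also had the highest levels of all 5 genes in its group, and the 5 were called higher in TAg than NAg without it too. The genes for complement C1q, which mark macrophages, had mean normalized counts of at most 3.0 in TAg and 1.9 in TPI. No B cell, dendritic cell or NK cell marker was called in these comparisons, with median log2 differences in T0:N0 of 0.72 for 5 B cell markers and 0.70 for 4 dendritic cell markers. Of the tested plasma cell markers only Xbp1, also a gene of the secretory stress response, was higher, in TAg:NAg and TPI:NPI, and Sdc1 (CD138) stayed at or below a mean of 33.7. Of 5 erythroid markers only Klf1 was called, higher in T0:N0 and TAg:NAg, while the median differences were 3.27 in T0:N0, 1.86 in TAg:NAg and 3.35 in TPI:NPI. Their sum was 1.22 to 5.95 CPM in N0 and 5.56 to 70.1 in T0. CD8 T cell markers summed to at most 19.0 CPM. The part that these cells had in the results on Il10 and its drivers was not tested, and the fits with marker scores given below cannot settle it. The myeloid score holds the neutrophil markers, which rose with tolerization. The regulatory T cell score holds Il2ra, which rose with Ag, and Nrp1, whose pattern was close to that of Maf. These scores moved with cell state or stimulus, so a call lost in such a fit cannot tell score from cell state.

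**Figure D1:**
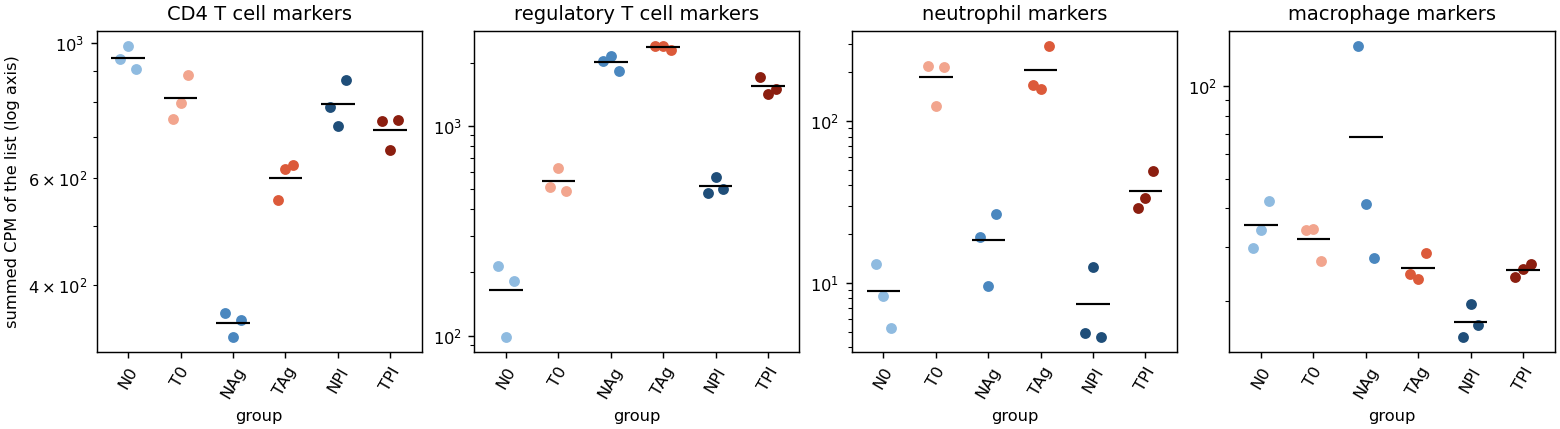
Summed CPM (log axis) of the CD4 T cell, regulatory T cell, neutrophil and macrophage markers in each library, by group, with the group mean as a bar. Neutrophil markers sit at 123 to 217 CPM in T0 against 5.23 to 13 in N0, and CD4 T cell markers are lowest in NAg.

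Il10 was close to absent from resting naive cells and rose with tolerization, with Ag and with PI. The N0 libraries held 3, 0 and 2 reads, or normalized counts of 2.97, 0 and 1.98. T0 libraries had normalized counts of 81.4, 89.2 and 61.4. Naive cells after Ag had values in the same range as tolerized cells at rest, 120, 82.2 and 45.1. After Ag, TAg libraries reached 3475, 3094 and 3719. PI brought NPI libraries to 463, 582 and 535 and TPI libraries to 22147, 12100 and 14645. The groups did not overlap except NAg and T0, whose log2 difference was 0.07 ± 0.37 (SE, edgeR adjusted p = 0.873, n = 3 each).

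Per length, Il10 went from the lowest of the 5 genes at rest to the highest after stimulation of tolerized cells. In N0 its mean level was 0.0923 RPKM (reads per kilobase of exon, scaled to library size), against 1.23 for Nfil3, 1.36 for Ahr, 2.17 for Prdm1 and 3.90 for Maf. In TAg it was 192 ± 17.6 RPKM (SD, n = 3), and the next was Maf at 92.0 ± 26.3. In TPI it was 911 ± 292 RPKM, followed by Nfil3 at 136 ± 34.7, Ahr at 74.4 ± 4.77, Maf at 29.0 ± 8.80 and Prdm1 at 24.9 ± 5.0.

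Maf was high in tolerized cells and responded to Ag there, and it had no called change with PI. N0 libraries had normalized counts of 597, 304 and 416, and T0 libraries 2094, 3009 and 3240. NAg libraries had 835, 562 and 458, which overlap N0, while TAg libraries reached 7785, 13597 and 9686. NPI libraries had 403, 396 and 405, and TPI libraries 4385, 2515 and 2885. Every tolerized library was above every naive one whatever the stimulus, and TPI overlapped T0.

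Prdm1 had the narrowest range of the 5 genes. N0 libraries had normalized counts of 156, 151 and 181, and T0 libraries 354, 397 and 270. NAg libraries had 604, 369 and 388, and TAg libraries 1538, 1492 and 1282. NPI libraries had 737, 910 and 803, and TPI libraries 2199, 1462 and 1954. T0 overlapped NAg and TAg overlapped TPI.

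Nfil3 rose with each of tolerization, Ag and PI, and no neighboring groups overlapped. N0 libraries had normalized counts of 43.6, 28.2 and 30.7, and T0 libraries 96.4, 108 and 122. NAg libraries had 246, 220 and 154, and TAg libraries 1049, 1596 and 1287. NPI libraries were close together at 656, 656 and 683, and TPI libraries were the highest at 4806, 2932 and 3514.

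Ahr followed the same course, except that its naive libraries after Ag and after PI overlapped (NPI:NAg −0.16 on the log2 scale, 95% interval −0.57 to 0.25). N0 libraries had normalized counts of 143, 89.8 and 112, and T0 libraries 642, 710 and 600. NAg libraries had 1490, 1061 and 793 and NPI libraries 882, 1202 and 907. TAg libraries were close together at 3583, 3765 and 3637, and TPI libraries had 6702, 5904 and 6216.

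**Figure D2:**
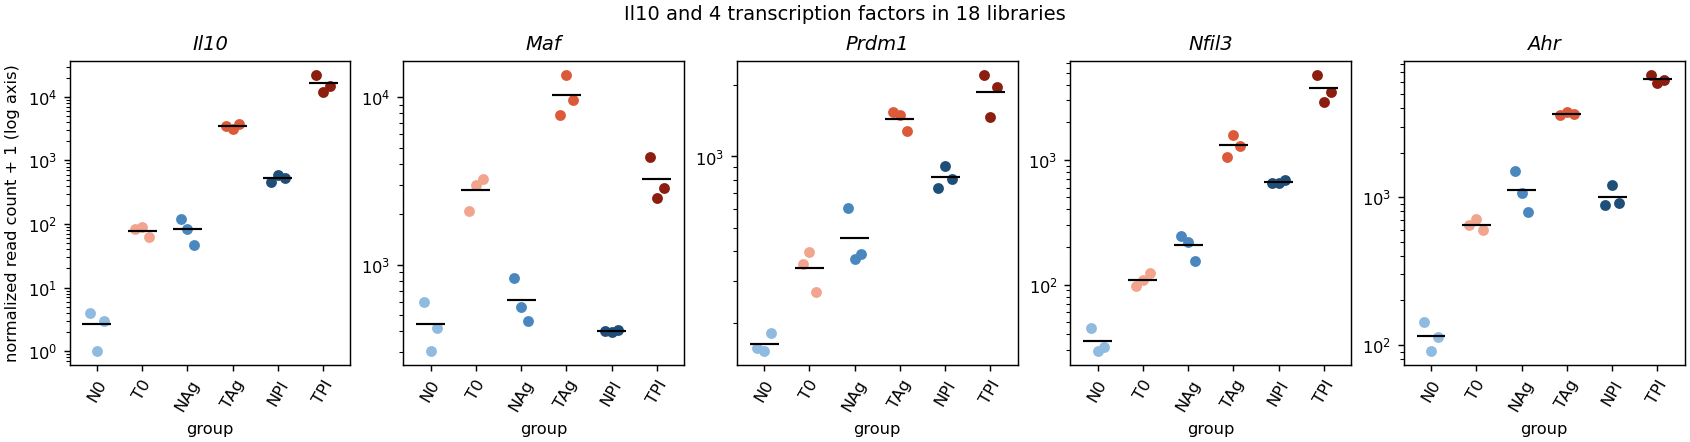
Normalized read count plus 1 (log axis) of Il10, Maf, Prdm1, Nfil3 and Ahr in each of the 18 libraries by group, 3 points a group, with the group mean as a bar. Il10 spans 0 to 22147 normalized counts, and Maf is the gene for which TAg lies above TPI and NPI at the level of N0.

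In resting cells, the comparison of T0 with N0 asks what tolerization leaves behind before any new stimulus, and all 5 genes were higher in T0. Over all tested genes, 8.42% were called higher in this comparison. Il10 was 46.3 times as abundant in T0 as in N0, with a 95% counting interval of 19.6 to 144 that rests on 5 reads in N0 against 257 in T0 and covers counting error only (adjusted p = 0.000378). Maf was higher by 2.66 ± 0.33 on the log2 scale (SE, adjusted p = 0.000128) and Ahr by 2.50 ± 0.23 (adjusted p = 7.23e-06). Nfil3 was higher by 1.66 ± 0.32 (adjusted p = 0.00242) and Prdm1 by 1.06 ± 0.22 (adjusted p = 0.00387). The naive and tolerized libraries did not overlap for any of the 5 genes, in this comparison or in the same ones after Ag and after PI, while 13.1%, 24.8% and 24.1% of tested genes had all tolerized libraries above all naive ones. All 5 stayed called without any 1 of the 6 libraries. The single female T0 library, with 61.4 normalized counts of Il10 and 3240 of Maf, lay above all 3 N0 libraries, also female, for each of the 5 genes. In a fit that took scores of erythroid and of myeloid markers as covariates, only Ahr stayed called (1.93, adjusted p = 0.0342). There Il10 differed by 5.37 (adjusted p = 0.0728), Maf by 2.34 (0.154), Nfil3 by 1.80 (0.185) and Prdm1 by 0.78 (0.548). With a regulatory T cell marker score instead, chosen as a covariate after the data were seen, Ahr (1.43, adjusted p = 0.00158) and Il10 (3.19, adjusted p = 0.0484) stayed called, while Maf (1.76), Nfil3 (0.93) and Prdm1 (0.27) did not.

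After Ag, all 5 genes were again higher in tolerized cells, in a comparison in which 20.9% of tested genes were called higher. Il10 was higher in TAg than in NAg by 5.39 ± 0.30 on the log2 scale (SE, adjusted p = 2.16e-08), or 41.9-fold, and Maf by 4.07 ± 0.34 (adjusted p = 1.1e-06), or 16.8-fold. Nfil3 was higher by 2.67 ± 0.22 (adjusted p = 3.74e-07), Ahr by 1.72 ± 0.19 (adjusted p = 7.55e-06) and Prdm1 by 1.66 ± 0.20 (adjusted p = 1.37e-05). These 5 calls held in every fit run, including those with the myeloid and erythroid scores and with the regulatory T cell score, where Il10 differed by 5.36 and 3.55. The 2 female TAg libraries, at 3475 and 3094, were far above the 3 NAg libraries, also female, whose highest value was 120.

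After PI, which bypasses the TCR, the 5 genes were higher in tolerized cells too, where 18.2% of tested genes were called higher and all 6 libraries were male. Il10 was higher in TPI than in NPI by 4.95 ± 0.27 on the log2 scale (SE, adjusted p = 1.04e-08), or 31.0-fold. Maf was higher by 3.02 ± 0.33 (adjusted p = 1.09e-05), Ahr by 2.66 ± 0.19 (adjusted p = 1.12e-07), Nfil3 by 2.50 ± 0.20 (adjusted p = 2.28e-07) and Prdm1 by 1.2 ± 0.19 (adjusted p = 0.000154). With the regulatory T cell score as a covariate, Il10 (2.39, adjusted p = 0.005) and Ahr (1.48, adjusted p = 0.000113) stayed called, while Maf (1.99, 0.0553), Nfil3 (1.68, 0.0599) and Prdm1 (0.36, 0.604) did not. With the myeloid and erythroid scores only Prdm1 lost its call (0.97, adjusted p = 0.102).

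Of the 5 genes, only Maf had no called response to Ag in naive cells, and no test compared it with the others. In naive cells, where 32.1% of tested genes were called higher in NAg than N0, Il10 rose to 48.4 times its N0 level (95% counting interval 20.4 to 151, adjusted p = 3.16e-05), Ahr by 3.27 ± 0.23 on the log2 scale, Nfil3 by 2.58 ± 0.30 and Prdm1 by 1.48 ± 0.22. Maf differed by 0.49 ± 0.33 (adjusted p = 0.215). In tolerized cells, where 29.9% of tested genes were called higher in TAg than T0, all 5 rose. Il10 rose by 5.46 ± 0.30, Nfil3 by 3.59 ± 0.23, Ahr by 2.49 ± 0.20, Prdm1 by 2.08 ± 0.20 and Maf by 1.90 ± 0.30 (adjusted p = 0.000109). With the regulatory T cell score as a covariate, Maf lost its call in TAg:T0 (0.87, adjusted p = 0.272) and Prdm1 in NAg:N0 (0.48, adjusted p = 0.364).

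The difference between these responses was tested itself, as an interaction in which 21.7% of tested genes were called. Maf was the only 1 of the 5 genes called, with a response larger in tolerized cells by 1.41 ± 0.45 on the log2 scale (adjusted p = 0.0404). This call is fragile, since it was lost without any 1 of 8 of the 12 libraries and in 5 of 8 other fits, with adjusted p up to 0.106 and a difference between 1.14 and 1.68 throughout. Prdm1 (0.60 ± 0.30, adjusted p = 0.182), Nfil3 (1.01 ± 0.41, 0.0989) and Ahr (−0.78 ± 0.30, 0.0799) did not pass. Their 95% intervals were −0.04 to 1.24, 0.14 to 1.88 and −1.42 to −0.14. For Il10 the difference in response was −0.04 (adjusted p = 0.973), but it rests on the 5 reads of N0 and has no usable error.

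PI raised Il10, Prdm1, Nfil3 and Ahr in both cell states and left Maf without a called change. In naive cells, where 28.6% of tested genes were called higher in NPI than N0, Il10 rose to 313 times its N0 level (95% counting interval 134 to 966), Nfil3 by 4.28 ± 0.27 on the log2 scale, Ahr by 3.11 ± 0.23 and Prdm1 by 2.33 ± 0.22. Maf differed by −0.13 ± 0.34 (adjusted p = 0.758). In tolerized cells, where 32% were called higher in TPI than T0, Il10 rose by 7.71 ± 0.32, Nfil3 by 5.11 ± 0.23, Ahr by 3.27 ± 0.20 and Prdm1 by 2.46 ± 0.20, with the largest of their adjusted p at 4.25e-08. Maf differed by 0.23 ± 0.30 (adjusted p = 0.508, 95% interval −0.42 to 0.88). No member was called for a PI response that differed between cell states, against 20.2% of tested genes, and 0 had an unadjusted p under 0.05 in edgeR. DESeq2 called 1, Nfil3 (0.84, adjusted p = 0.0256, against 0.84 ± 0.39 and 0.164 in edgeR). PI libraries were cultured and Ag libraries came from injected mice, so stimulus and setting cannot be told apart. In naive cells sex went with them too, since N0 and NAg libraries were female and NPI libraries male by their reads.

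**Figure D3:**
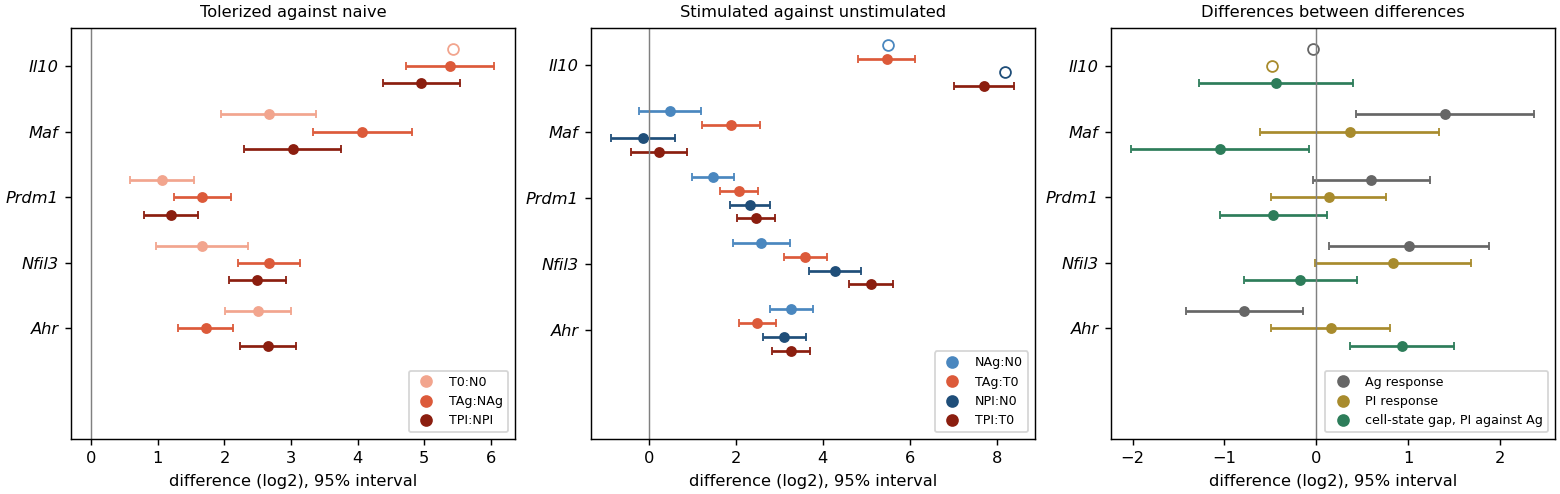
Log2 differences of the 5 genes from the fit over all libraries, with 95% intervals, for tolerized against naive cells, stimulated against unstimulated cells, and the tests of a difference between 2 differences. Open symbols are Il10 values that rest on the 5 reads of N0 and carry no usable interval. Maf has intervals that include 0 in NAg:N0, NPI:N0 and TPI:T0. Its Ag response is larger in tolerized cells by 1.41, a call lost without any 1 of 8 of the 12 libraries.

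Set against each other, the 2 stimuli ordered the genes differently. In tolerized cells, where 31.5% of tested genes were called higher and 32.3% lower in TPI than TAg, Il10 was higher with PI by 2.25 ± 0.23 (adjusted p = 1.22e-06), Nfil3 by 1.52 ± 0.19 (adjusted p = 5.54e-06) and Ahr by 0.78 ± 0.18 (adjusted p = 0.00175). Maf was lower with PI by 1.67, a log2 difference of −1.67 ± 0.30 (adjusted p = 0.0003), and lost the call only with the myeloid and erythroid scores (−1.09, adjusted p = 0.295). Prdm1 differed by 0.38 ± 0.18 (adjusted p = 0.0844). Il10 was at its highest in TPI, where Maf stood at 31.5% of its TAg level and at 8.13 times its NPI level. How the levels of these genes relate was not tested. In naive cells, where 33.5% were called higher in NPI than NAg, Il10 (2.69 ± 0.31), Nfil3 (1.69 ± 0.22) and Prdm1 (0.85 ± 0.20) were higher with PI, while Maf (−0.62 ± 0.33, adjusted p = 0.122) and Ahr (−0.16 ± 0.19, adjusted p = 0.477) were not called.

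The gap between tolerized and naive cells after PI was also tested against the gap after Ag, where 17.2% of tested genes were called for a larger gap after PI. This share leaves out genes called for a smaller gap, while members were counted in either direction. Only Ahr was called, with a gap larger after PI by 0.94 ± 0.26 on the log2 scale (adjusted p = 0.0114), and this call held in each fit that left out a library (adjusted p at most 0.0353) and in every other fit, though the difference is under 2-fold. Maf pointed the other way (−1.04 ± 0.45, adjusted p = 0.0884) and was called without NAg replicate 1 or TPI replicate 1. Without NAg replicate 1, Prdm1 was called too and the count of members called rose from 1 to 3. Il10 (−0.44 ± 0.39, 95% interval −1.28 to 0.40), Prdm1 (−0.47 ± 0.27) and Nfil3 (−0.17 ± 0.28) did not pass.

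Over the 6 groups, Il10, Prdm1 and Nfil3 took the same order, TPI above TAg, NPI, NAg, T0 and N0. Ahr had NAg just above NPI, which did not differ. Maf had the order TAg, TPI, T0, NAg, N0 and NPI, in which TPI and T0, NAg and N0, and N0 and NPI did not differ beyond their spread. Of the neighbors in the order of Prdm1, TPI against TAg and NAg against T0 overlapped and did not pass the test (adjusted p = 0.0844 and 0.0889). The first of these was called with DESeq2 (0.41, adjusted p = 0.0263), with only the groups compared (0.39, 0.046), with the regulatory T cell score (0.58, 0.00585) and without TPI replicate 2 (0.53, 0.0188).

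Across the means of the 6 groups, log2 CPM of Il10 had a Pearson correlation of 0.99 with Prdm1, 0.99 with Nfil3 and 0.98 with Ahr, and 0.65 with Maf (n = 6). Maf had 0.61 with Prdm1, 0.54 with Nfil3 and 0.68 with Ahr. These are descriptions of 6 points set by cell state and stimulus. Within groups the picture was another one. The deviations of the 18 libraries from their group means were most alike for Maf and Nfil3 (r = 0.94) and for Il10 and Ahr (r = 0.85), and least for Prdm1 and Nfil3 (r = 0.32). Values of a library share its depth and its mouse or culture. The Il10 correlations, of deviations and of group means alike, take in N0 libraries with 3, 0 and 2 reads. Log2 CPM of Il10 spanned −3.79 to −1.79 in those libraries, mostly counting error. The likeness of other genes to Il10 given below has the same limit.

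**Figure D4:**
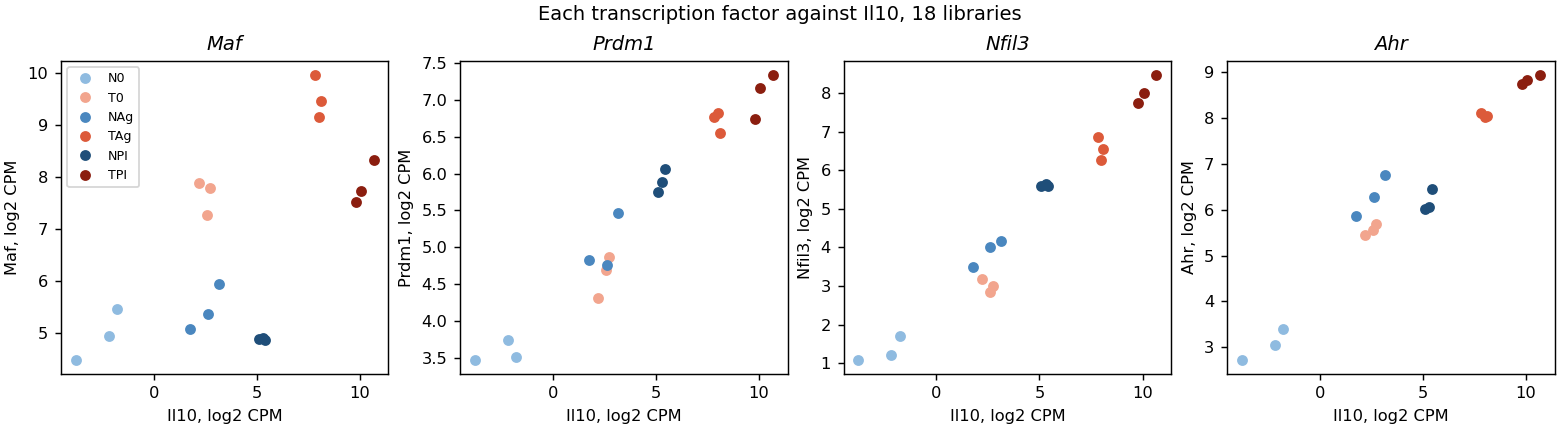
Log2 CPM of Maf, Prdm1, Nfil3 and Ahr against that of Il10 in the 18 libraries, colored by group. Prdm1, Nfil3 and Ahr rise with Il10 over all groups (r of group means 0.98 to 0.99), while for Maf the tolerized groups lie above the naive ones and the r of group means is 0.65.

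Among all tested genes, the pattern most like Il10 over the 18 libraries by Pearson r of log2 CPM was that of Itgb8 (r = 0.98), which encodes an integrin subunit that activates latent TGF-β. Nfil3 and Prdm1 themselves came next, and then Zbtb32 and Runx2, which encode transcription factors. Ahr ranked eighth and Maf stood at rank 1453. Itgb8 had mean normalized counts of 89.8 in N0, 266 in T0, 325 in NAg, 2195 in TAg, 641 in NPI and 2857 in TPI. For Prdm1 the first were Il10, Nfil3, Itgb8 and Rgs16, a regulator of G protein signaling, and for Nfil3 they were Cpd, Rgs16 and Il21, with Il10 the fifth. For Maf they were the noncoding Gm17173 and B930095G15Rik, then Nrp1, Phactr2 and Cst7 (r of 0.96 to 0.97), of which Nrp1, the neuropilin receptor, is also on the regulatory T cell list. For Ahr they were Icos, Eea1, the noncoding F730043M19Rik, Klf9 and Chst11 (r of 0.98 to 0.99). By Spearman's rho 1 of the first 5 for Il10 and 2 or 3 for the others remained among the first 5.

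The list also held n-R5s54, annotated as a ribosomal RNA gene of 112 bases on the same strand as Nfil3 and 2476 bases past its 3′ end (chr13:53059990-53060101). Its mean normalized counts were 0 in N0, 1.84 in T0, 2.32 in NAg, 16.9 in TAg, 9.62 in NPI and 46.8 in TPI, and its r with Nfil3 was 0.98. The source of these reads was not tested.

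The genes next to Il10 were near 0 or changed less between cell states. Within 100 kb of Il10 the annotation holds 4 genes, Il19, Mapkapk2, U6 and 7SK. Il19, an IL-10 family cytokine, had at most 2 reads in any library and 7SK had 0. Mapkapk2, which encodes the p38-activated kinase MK2, had mean normalized counts of 722 in N0, 861 in T0, 4171 in NAg, 4706 in TAg, 4272 in NPI and 8502 in TPI. It was called higher in TPI:NPI (0.99 ± 0.09, adjusted p = 5.53e-09) and not in T0:N0 (0.25 ± 0.09, 0.0596) or TAg:NAg (0.17 ± 0.09, 0.125). U6, inside Mapkapk2, had 14.4 in N0 and 202 in TPI, with no call between cell states. Of the other family members, Il20 and Il24 had at most 2 reads, and Il22 was called higher in TPI:NPI (1.24 ± 0.42, adjusted p = 0.0374) from means of 191 and 449.

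The genes around the 5 members are given by lists, in T0:N0, TAg:NAg and TPI:NPI, in which 20.4%, 39.4% and 37.9% of tested genes were called in either direction. Among 8 genes of the IL-10 receptor and its signaling, 3 were higher and 0 lower in T0:N0, 4 and 1 in TAg:NAg, and 5 and 2 in TPI:NPI. Their median log2 differences were 0.23, 0.26 and 0.53, against −0.08, 0.01 and −0.04 over all tested genes. Il10ra, the ligand-binding chain, was higher in T0 (1.09 ± 0.22) and TPI (1.02 ± 0.22) and not called in TAg (0.27 ± 0.22). Socs3, the feedback inhibitor of STAT3 signaling, was higher in all 3 (0.85, 0.72 and 0.72). Stat3 was lower in TAg (−0.67 ± 0.09) and higher in TPI (1.14 ± 0.09).

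Of 10 cytokine and costimulatory inputs to Il10, 3 were higher and 2 lower in T0:N0, 5 and 2 in TAg:NAg, and 4 and 1 in TPI:NPI (medians 0.04, 0.27 and 0.16). Il21, a cytokine that supports IL-10 production, was higher in TAg by 3.01 ± 0.30 and in TPI by 4.03 ± 0.30, with means of 459 in NAg, 3682 in TAg, 1355 in NPI and 22184 in TPI. Its T0:N0 difference of 2.36 missed the threshold (adjusted p = 0.0525). Icos, the costimulatory receptor, was higher in all 3 comparisons (1.18 ± 0.15, 1.43 ± 0.14 and 1.58 ± 0.14). Il12rb1 was higher in T0 (1.89 ± 0.16) and TPI (0.97 ± 0.18), and Il6st, the shared chain of the IL-6 and IL-27 receptors, was lower in TAg (−0.73 ± 0.08) and higher in TPI (1.13 ± 0.08).

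Of 12 other activators of Il10 transcription, 3 were higher and 1 lower in T0:N0, 2 and 4 in TAg:NAg, and 6 and 2 in TPI:NPI (medians 0.07, −0.22 and 0.49). Irf4 and Batf, partners at composite sites with AP-1, had mean normalized counts of 46762 and 2121 in NAg against 35844 and 1650 in TAg. Irf4 was lower in TAg by −0.38 ± 0.12 on the log2 scale and higher in TPI by 0.84 ± 0.12, and Batf was called only in TPI (1.19 ± 0.20). Nfatc1, a calcium-regulated factor, was higher in T0 (0.49 ± 0.09) and TPI (1.48 ± 0.09), and Egr2, an anergy factor, in TPI (1.2 ± 0.19). The genes called higher in TAg:NAg were Jun (1.18 ± 0.19), a subunit of AP-1, and Nfatc2 (0.99 ± 0.11), named to complete the count.

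Of the 3 listed repressors, all were called after either stimulus and in opposite directions, with no call in T0:N0. Bhlhe40, which represses Il10, was lower in TAg (−0.61 ± 0.21) and higher in TPI (1.72 ± 0.21). Bcl6, which opposes BLIMP-1, was lower in TAg (−1.36 ± 0.16) and higher in TPI (0.69 ± 0.14). Ets1 was higher in TAg (1.48 ± 0.09) and lower in TPI (−0.51 ± 0.09). Il10, Bhlhe40 (mean of 8326) and Bcl6 (2628) were each at their highest in TPI, where Ets1 was lower than in NPI. Whether any of the 3 acted on Il10 was not tested.

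The MAF family and its CNC and BACH partners gave 2 higher and 4 lower of 10 tested genes in T0:N0, 2 and 7 in TAg:NAg, and 3 and 3 in TPI:NPI (medians −0.40, −0.55 and −0.02). Bach2, a repressor that restrains effector genes, was lower in T0 (−0.93 ± 0.11) and TPI (−0.33 ± 0.10) and higher in TAg (0.66 ± 0.10). Maff, a small MAF, was lower in TAg (−1.18 ± 0.18). Nfe2, also a gene of erythroid and megakaryocytic cells, was higher in all 3 (1.93, 1.58 and 1.90) from means of 11 to 18 in naive groups. Of 5 known targets of MAF in T cells, 2, 2 and 3 were higher and 0 lower (medians 1.18, 0.83 and 1.58). Beside Il21 and Icos, Cxcr5, the follicular homing receptor, was higher in T0 (1.65 ± 0.40) and TPI (2.68 ± 0.37), and Il4 and Ccr6 were not called.

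Ahr was higher in each of the 3 tolerized against naive comparisons, and no listed target of AHR was called higher in them. Except for Tiparp, the listed targets had few reads, at most 42 in a library for Ahrr and 17 for Nqo1. AHR activity was not tested. Of 8 tested AHR partners and targets, 0 were higher and 1 lower in T0:N0, 2 and 2 in TAg:NAg, and 1 and 2 in TPI:NPI (medians −0.19, −0.06 and −0.19). Ahrr, the AHR repressor and a direct AHR target, had means of 16.1 in NAg and 5.53 in TAg (−1.53 ± 0.41, adjusted p = 0.00455). Tiparp, another target, was lower in TAg as well (−0.81 ± 0.19, adjusted p = 0.00446) and not called in TPI:NPI (0.36 ± 0.18). With stimulation, where Ahr rose too, some targets did rise. Against unstimulated cells of the same state, Tiparp was called higher in NAg (1.55), TAg (0.90), NPI (2.74) and TPI (3.26). Ahrr was called higher in NPI and TPI (1.97 each) but not in NAg or TAg, and the other tested targets were not called. Cyp1a1 and Cyp1b1, classical targets that report ligand-bound AHR in many tissues, had at most 7 and 5 reads in any library and Cyp1a2 at most 1. Of the cofactors, Arnt, the dimer partner, was lower in T0 (−0.25 ± 0.07), higher in TAg (0.24 ± 0.07) and lower in TPI (−0.32 ± 0.07), and Ptges3 (p23) was higher in TPI (0.73 ± 0.11).

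Genes that BLIMP-1 is known to repress gave 1 higher and 0 lower of 8 in T0:N0, 1 and 3 in TAg:NAg, and 3 and 0 in TPI:NPI (medians 0.43, −0.53 and 0.19). Il2 had means of 4452 in NAg and 717 in TAg (−2.63 ± 0.25) and of 4254 in NPI and 8325 in TPI (0.97 ± 0.23). Against naive cells it was lower in TAg and higher in TPI, and Prdm1 was higher in both. Repression by BLIMP-1 was not tested. Id3, which holds back effector differentiation, was higher in T0 (0.59 ± 0.19) and TAg (1.48 ± 0.20). Of 9 NFIL3 competitors, clock genes and targets, 2 were higher and 1 lower in T0:N0, 1 and 4 in TAg:NAg, and 3 and 2 in TPI:NPI (medians −0.09, −0.40 and −0.18). Havcr2, the gene for the inhibitory receptor TIM-3 and a target of NFIL3 in T cells, was higher in all 3 (1.90 ± 0.51, 2.02 ± 0.41 and 1.70 ± 0.31). Hlf, which binds the same sites as NFIL3, was higher in T0 (1.38 ± 0.32) and TPI (0.80 ± 0.23). The clock gene Per2 was lower in T0 (−0.51 ± 0.13) and higher in TPI (1.01 ± 0.10), and Nr1d1, the clock repressor of Nfil3, was lower in TAg (−0.81 ± 0.22).

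**Figure D5:**
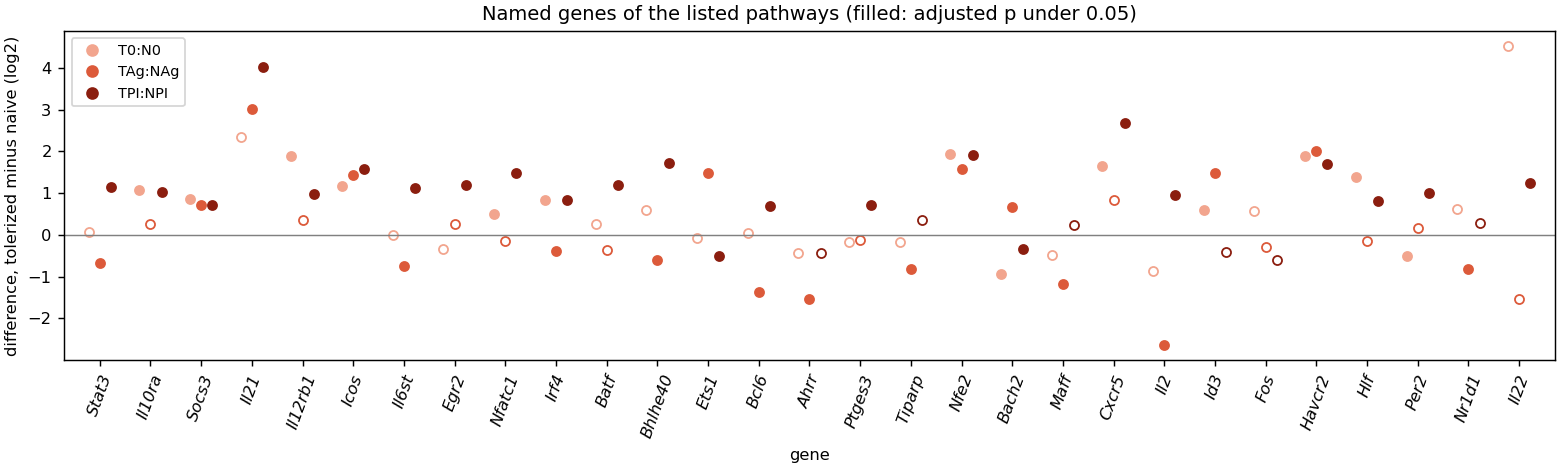
Log2 differences between tolerized and naive cells at rest, after Ag and after PI for the named genes of the pathway lists, filled where the adjusted p was under 0.05. Il21, Icos and Havcr2 lie above 0 in all 3, while Stat3, Il6st, Bhlhe40 and Bcl6 are lower after Ag and higher after PI, and Ets1 the reverse.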

How the data were processed

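RNA-seq was measured in 18 libraries (6 groups of 3 biological replicates). For each, the authors aligned reads to mm9 with TopHat2 2.1.1, counted them per gene with HTSeq 0.9.1 and deposited raw counts per gene and library, which are whole numbers without normalization. The counting mode is not given in the sources used here. DESeq2 1.18 and edgeR 3.24 also stand in the submitters' processing notes. Gene symbols came from a GENCODE annotation of the same build (NCBIM37), for 37205 of 37991 genes.

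The counts were analysed in R 4.3.3 with edgeR 4.0.16. A gene was tested if its normalized count averaged 3 or more in any group, which held for 17240 genes. After TMM scaling, a model with 1 mean per group was fitted over the 18 libraries together, and the robust quasi-likelihood F test gave the contrasts. Adjusted p-values are Benjamini-Hochberg values over all tested genes, and a gene was called at an adjusted p under 0.05. A standard error is the log2 difference over the square root of F. RPKM used annotated exon length. Il10 ratios against N0 have exact 95% counting intervals. Replicates were checked, and 0 pairs of libraries held identical counts. On simulated data for T0:N0 with 16605 genes, the fit recovered 90 of 100 genes changed by a log2 difference of 1 and 99 of 100 changed by 2, with 8 false calls.

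The 5 genes, the pathway and marker lists and the comparisons were chosen with earlier results of these data known. Genes named besides the members are those overlapping a member, those within 100 kb of Il10 and the markers. The 5 genes most like each member by Pearson r are named as well. Up to 4 genes of each pathway list were named by their largest called change. That change was sought in T0:N0, TAg:NAg, TPI:NPI and the differences in Ag and PI response between cell states. Other genes are named only to complete a count, and some listed genes are counted but not reported here by name. Alternatives were DESeq2 1.42.0 (its test and its size factors), no filter, only the groups compared, a replicate block, marker scores and sex as covariates, a limit of 2-fold, and each library left out. The regulatory T cell score, and the macrophage marker count without single libraries, were added after the data were seen.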

Additional observations from a re-analysis of the deposited data

Results flagged for a closer look

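Among Il10 and its drivers, 2 tests of a difference between differences passed. Over all tested genes, 21.7% were called for the difference in Ag response and 17.2% for a larger gap after PI. The Ag response of Maf was larger in tolerized than in naive cells by 1.41 on the log2 scale, and the gap between cell states in Ahr was larger after PI than after Ag by 0.94. Both were tested as interactions in edgeR over all libraries, and what lies behind them was not tested. The Maf call is fragile, since it was lost without any 1 of 8 of the 12 libraries and in 5 of 8 other fits.

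Around them, several named pathway genes differed in response between cell states by the same test. Many were named because of a called difference in these very responses, so their passing is no separate evidence. Over all tested genes, 21.7% were called for the Ag response and 20.2% for the PI response. Differences in opposite directions, with a smaller Ag response and a larger PI response in tolerized cells, were found for Stat3 (−0.76 for Ag and 1.06 for PI), Il6st (−0.72 and 1.14), Nfatc1 (−0.63 and 0.99), Bhlhe40 (−1.21 and 1.11) and Bcl6 (−1.40 and 0.65). The opposite pair was found for Ets1 (1.56 and −0.42) and Id3 (0.89 and −0.99). Both responses were smaller for Il12rb1 (−1.54 and −0.92) and larger for Bach2 (1.59 and 0.60) and Per2 (0.68 and 1.52). After Ag alone the difference passed for Irf4 (−1.23), Hlf (−1.52) and Nr1d1 (−1.44), and after PI alone for Egr2 (1.53), Batf (0.94), Ptges3 (0.89) and Fos (−1.17). PI cells were stimulated in culture and were all male by their reads, while N0 was female and T0 held both sexes, so culture, sex and stimulus cannot be told apart in the PI responses. For the Ag responses there was no culture, N0 and NAg were female, and T0 and TAg held both sexes.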

How the results depend on the processing

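The counts of members called in TAg:NAg, NAg:N0, TAg:T0, NPI:N0, TPI:T0 and TPI:TAg stayed within 1.5 times under every alternative. With the erythroid and myeloid scores, 1 member was called in T0:N0 and 1 in NPI:NAg, and with the regulatory T cell score, 2 in T0:N0, 2 in TPI:NPI, 3 for the Ag response and 4 for the cell-state gap between PI and Ag. The Ag response, with 1 call (Maf), had 3 with DESeq2's test, 0 without the filter, with either of the 2 planned covariate fits and with the replicate block (Maf 1.41, adjusted p = 0.0600), and 0 to 2 with each library left out. DESeq2 called 1 member for the PI response. The cell-state gap had 0 calls at 2-fold, and 1 to 3 with libraries left out (3 without NAg replicate 1, 2 without TPI replicate 1). The block changed no other count of members called. Same-numbered libraries deviated from their group means with r from −0.20 to 0.11 (median −0.02), and 2 of 18 correlated best with their own number, so the numbers do not pair them. The cause of these shifts was not tested. Signs that turned were of differences that were not called. With the regulatory T cell score, Maf was −0.70 in NAg:N0 and −0.57 in TPI:T0, Ahr 0.44 in NPI:NAg (adjusted p = 0.00919, called) and the Il10 Ag response 0.36. With the myeloid and erythroid scores, Maf was 0.32 in NPI:N0 and Ahr 0.73 in NPI:NAg. With sex, Maf was 0.11 in NPI:N0 and the Il10 Ag response 0.053. With libraries left out, Maf ranged from −0.38 to 0.11 in NPI:N0 and from −0.018 to 0.39 in TPI:T0, Ahr from −0.37 to 0.10 in NPI:NAg and from −0.014 to 0.32 in its PI response, Il10 from −0.68 to 0.51 in its Ag response and from −1.13 to 0.067 in its PI response, and Nfil3 from −0.39 to 0.027 in the cell-state gap. The 5 reads of Il10 in N0 limit its responses most.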
